A study of Mus musculus with 6 samples.

Results

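Arc, Npas4, Nr4a1, Nr4a2, Nr4a3, Ier2, Dusp1 and Btg2 are 8 genes whose transcripts are made within minutes of a stimulus, in neurons above all during electrical activity. They were picked by symbol from a table of 21959 genes measured by bulk RNA sequencing of mouse paraventricular thalamus, and all 8 were found and had enough counts to be tested. The series compared 3 libraries from mice with chronic constriction injury (CCI, replicates 1, 2 and 3), a surgical nerve injury used to model neuropathic pain, with 3 libraries from control mice that had no treatment (replicates 4, 5 and 6). Both groups are labelled wild type, and the labels used here give no age, sex, time after injury or batch. The design text states 30 mice in each group but not which or how many mice went into a library. Each p-value here therefore rests on the spread of 3 libraries a group, some of which may be technical.

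Nerve cells that fire let in calcium, which through kinases and phosphatases acts on transcription factors already present, such as CREB, SRF and MEF2, and these switch on the early genes without new protein synthesis. Some early genes act at the synapse, as Arc does, and others encode transcription factors, as Npas4 and the NR4A nuclear receptors do, or brakes on signalling and growth, as Dusp1 and Btg2 do. Npas4 is known for its close tie to calcium entry in neurons, whereas Ier2, Dusp1, Btg2 and Nr4a1 are also induced by growth factors and stress in glia and blood vessel cells. The paraventricular thalamus is a midline nucleus that responds to arousal, stress and pain, and the title of the series concerns lasting neuronal stimulation in it, so the comparison bears on whether activity-regulated transcripts differed between CCI and control.

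Deposited counts summed to between 7989139 and 10529886 per CCI library and to between 12337448 and 15438268 per control library. All 6 thalamic neuron markers checked were present in every library. They summed to 359 to 618 FPKM (reads scaled for gene length and for the library's counted reads) in CCI and 985 to 1176 in control. All 6 were called lower in CCI, against 25.3% of all tested genes. In control replicate 5 the 50 most abundant genes took 20.7% of the counts, against 12.6% to 14.5% in the other libraries. Transcripts of the mitochondrial genome took 1.65% to 1.885% of counts in CCI and 0.686% to 1.28% in control. In bulk tissue, fewer cells of a type and less RNA per cell cannot be told apart.

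The promoters of 6 of the 8 genes were searched for the cyclic AMP response element, the sequence through which CREB is known to act. RefSeq promoter windows (GRCm38.p6, an older build than the GRCm39 of the deposited table) were matched by symbol for these 6. Arc and Ier2 had no window and were not searched. The 250 bases before the start site were searched on both strands. The core letters TGACG, which read CGTCA when they lie on the other strand, were present in all 6 windows and in 17.8% of 32851 windows of the same length. The full palindrome TGACGTCA, which contains the core on both strands, was present in the windows of Dusp1 and Btg2 and in 1.55% of all windows. The 6 windows were 63.6% to 80.0% G and C, against a median of 52.4% over all windows. Nr4a1 had 4 matches to the core and Nr4a2, which was lower in CCI, also 4, with no palindrome in either. The 4 windows below are shown because Npas4 and Nr4a3 were higher in CCI and Dusp1 and Btg2 lower, so that genes moving in opposite directions can be read side by side. Capitals mark every match to the core or the palindrome, and the windows are Npas4 at chr19:4989972-4990221 (minus strand), Nr4a3 at chr4:48045055-48045304 (plus), Dusp1 at chr17:26508473-26508722 (minus) and Btg2 at chr1:134079156-134079405 (minus).
Npas4: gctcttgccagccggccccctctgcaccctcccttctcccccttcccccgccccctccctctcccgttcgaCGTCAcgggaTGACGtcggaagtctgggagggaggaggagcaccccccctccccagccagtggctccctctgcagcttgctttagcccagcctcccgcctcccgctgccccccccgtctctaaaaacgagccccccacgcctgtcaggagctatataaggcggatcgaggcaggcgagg
Nr4a3: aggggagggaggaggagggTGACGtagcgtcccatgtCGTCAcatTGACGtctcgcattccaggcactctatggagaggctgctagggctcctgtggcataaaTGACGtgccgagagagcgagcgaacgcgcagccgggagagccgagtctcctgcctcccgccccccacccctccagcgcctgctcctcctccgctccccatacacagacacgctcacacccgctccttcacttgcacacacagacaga
Dusp1: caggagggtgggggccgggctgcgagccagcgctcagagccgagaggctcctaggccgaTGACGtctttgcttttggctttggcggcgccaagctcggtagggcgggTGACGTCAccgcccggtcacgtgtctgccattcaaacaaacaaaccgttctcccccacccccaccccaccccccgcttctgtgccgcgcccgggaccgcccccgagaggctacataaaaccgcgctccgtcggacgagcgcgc
Btg2: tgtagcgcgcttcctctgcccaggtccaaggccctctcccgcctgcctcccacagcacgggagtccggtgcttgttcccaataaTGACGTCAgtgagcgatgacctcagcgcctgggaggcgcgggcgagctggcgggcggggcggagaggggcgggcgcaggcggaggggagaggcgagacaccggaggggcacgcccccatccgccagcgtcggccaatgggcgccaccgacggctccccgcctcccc
Npas4 carries 2 cores on opposite strands, Nr4a3 carries 4 separate cores, and Dusp1 and Btg2 each carry 1 full palindrome, with a further core in Dusp1. None of the 6 windows held the NR4A monomer site AAAGGTCA (1.34% of all windows) or a CArG box, the element bound by SRF (1.47%), and TATAAA was found in the Nr4a2 window alone (12.4% of all windows). A match is a description of the letters in this window and not a test of binding. A link between the matches and the direction of change was not tested.

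The 8 genes did not move together. In CCI, Arc and Npas4 rose about as strongly as each other, Nr4a3 rose less, Ier2, Nr4a2, Dusp1 and Btg2 fell, and Nr4a1 did not pass the test. Thus 3 of 8 were called higher, against 27.0% of the 14259 tested genes, and 4 of 8 lower, against 25.3%. Calls are by edgeR's quasi-likelihood test at a Benjamini-Hochberg adjusted p of 0.05 over all tested genes, and log2 fold changes are of CCI over control with their standard errors. The median log2 fold change was -0.30 over the 8 genes and 0.06 over all tested genes. With 52.3% of all tested genes called in either direction, 7 calls among 8 genes stand on a high background. On the FPKM scale 3 of 8 were higher without overlap between the groups (54.1% of tested genes) and 1 lower (12.5%). In TMM-scaled CPM, depth-scaled counts that allow for the share of reads taken by a few abundant genes, 7 of 8 did not overlap (63.0% of tested genes), 3 of them higher (33.6%) and 4 lower (29.4%).

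**Figure D1:**
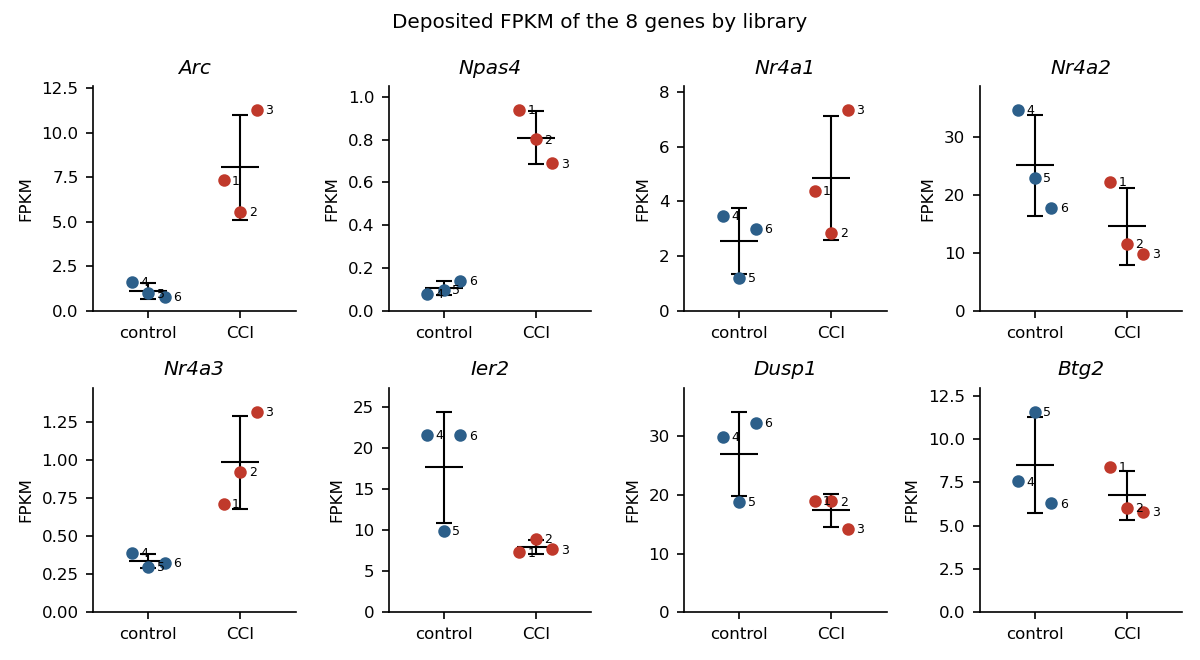
Deposited FPKM of each gene (vertical axes, linear from 0) in the 3 control and 3 CCI libraries. Points are libraries labelled by replicate number, the long bar is the group mean and the whiskers are the SD (n = 3). Arc, Npas4 and Nr4a3 lie higher in every CCI library than in any control library and Ier2 lies lower, whereas the groups overlap on this scale for Nr4a1, Nr4a2, Dusp1 and Btg2.

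Arc (ENSMUSG00000022602, chromosome 15, 74540932 to 74544419, minus strand, GRCm39) encodes a capsid-forming protein that removes AMPA receptors from synapses and whose mRNA travels into dendrites. It stood at 7.33, 5.56 and 11.3 FPKM in CCI replicates 1, 2 and 3 and at 1.63, 0.981 and 0.784 FPKM in control replicates 4, 5 and 6. The lowest CCI library was above the highest control library, and CCI replicate 3 was the highest of all. The raw counts were also higher in CCI (179, 154 and 363) than in control (62, 37 and 37) although the CCI libraries were shallower. The rise was 2.25 ± 0.35 on the log2 scale, or 4.76-fold (adjusted p = 0.00108). It passed in each of the 16 alternative settings, from 1.92 without CCI replicate 3 to 2.84 with column totals as the only scaling.

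Npas4 (ENSMUSG00000045903, chromosome 19, 5034383 to 5040344, minus strand) encodes a transcription factor that is nearly restricted to neurons and shapes their inhibitory synapses. Its level was 0.938, 0.801 and 0.689 FPKM in CCI and 0.0777, 0.0980 and 0.141 FPKM in control. All CCI libraries were above all control libraries, and the CCI libraries lay close together, with replicate 3, the highest for Arc, the lowest here. These levels rest on 31, 30 and 30 reads in CCI and on 4, 5 and 9 reads in control. The 95% exact Poisson interval was 1.09 to 10.2 for the 4 reads and 4.12 to 17.1 for the 9, against 20.2 to 42.8 for 30 reads, and it covers counting error only. The log2 fold change was 2.30 ± 0.39, or 4.91-fold (adjusted p = 0.00177). It was 1.504 with trends in gene length and mean count removed and 0.71 on log2(FPKM + 1), where the added 1 exceeds the gene's level, and the gene passed in both.

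The 3 NR4A genes encode orphan nuclear receptors that bind the same DNA element, and they differed in direction. Nr4a1 (ENSMUSG00000023034, chromosome 15, 101152150 to 101172676, plus strand), the member best known from growth factor and activity responses, stood at 4.39, 2.86 and 7.33 FPKM in CCI and at 3.48, 1.20 and 2.99 FPKM in control. The groups overlapped, with CCI replicate 3 high and control replicate 5 low. Its log2 fold change was 0.38 ± 0.39 (adjusted p = 0.436) and -0.05 without CCI replicate 3.

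Nr4a2 (ENSMUSG00000026826, chromosome 2, 56996842 to 57014015, minus strand), also called Nurr1 and needed by midbrain dopamine neurons, was the most abundant of the 3. It stood at 22.3, 11.6 and 9.92 FPKM in CCI and at 34.7, 22.9 and 17.8 FPKM in control. CCI replicate 1 lay above control replicate 6 on this scale. In TMM-scaled CPM the groups did not overlap, at 32.7 to 72.6 in CCI and 83.6 to 157 in control. The gene fell by 1.38 ± 0.34 (log2), or to a level 2.61-fold lower (adjusted p = 0.00874). The call was lost on log2(FPKM + 1) (-0.78, adjusted p = 0.0809), with column totals alone (-0.78) and with length and mean count trends removed (-0.80, adjusted p = 0.0980).

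Nr4a3 (ENSMUSG00000028341, chromosome 4, 48045153 to 48086447, plus strand), the third NR4A receptor gene, stood at 0.711, 0.922 and 1.32 FPKM in CCI and at 0.389, 0.298 and 0.325 FPKM in control. The groups did not overlap, also in raw reads (34, 50 and 83 against 29, 22 and 30). Its log2 fold change was 0.96 ± 0.32, or 1.95-fold (adjusted p = 0.0329). The call was lost when CCI replicate 2 or 3, or control replicate 4 or 6, was left out (adjusted p between 0.0718 and 0.122), and with length and mean count trends removed the value was 0.21 (adjusted p = 0.616).

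Ier2 (ENSMUSG00000053560, chromosome 8, 85387960 to 85389483, minus strand) is an early gene for a nuclear protein and is induced in many cell types. It stood at 7.31, 8.98 and 7.66 FPKM in CCI and at 21.7, 9.89 and 21.5 FPKM in control. The groups did not overlap, but control replicate 5 lay much nearer to the CCI libraries than to the other controls. The gene fell by 1.70 ± 0.25 (log2), or to a level 3.25-fold lower (adjusted p = 0.000811). It passed in each alternative setting. The value was -1.94 without control replicate 5, -0.98 on log2(FPKM + 1) and -1.06 on log2(FPKM + 0.1).

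Dusp1 (ENSMUSG00000024190, chromosome 17, minus strand) encodes a phosphatase that switches off MAP kinases and is also induced by glucocorticoids. It stood at 19.0, 18.9 and 14.2 FPKM in CCI and at 29.9, 18.8 and 32.4 FPKM in control. Control replicate 5 lay within the CCI range on this scale, while in TMM-scaled CPM the groups were apart, at 38.1 to 51.8 in CCI and 91.0 to 124 in control. The fall was 1.21 ± 0.19 (log2), or 2.32-fold (adjusted p = 0.00110). The call was lost on log2(FPKM + 1) (-0.59, adjusted p = 0.0605), and the value was -0.64 with column totals alone and -0.55 (adjusted p = 0.0328) with length and mean count trends removed. The table places Dusp1 between 26724564 and 26781102, which overlaps Ergic1, a gene of the secretory pathway on the opposite strand (26780463 to 26875908). The shared stretch is only 26780463 to 26781102, at the end of a Dusp1 span of 56539 bp (gene length 3311 bp). No strand setting is stated, so reads of the overlap cannot be assigned, and their share of the Dusp1 count is not known. Ergic1 had a log2 fold change of -1.93 ± 0.21 (adjusted p = 0.000280). No other gene of the 8 overlaps a gene of the table.

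Btg2 (ENSMUSG00000020423, chromosome 1, 134002908 to 134006858, minus strand), which encodes a protein that restrains cell division and recruits the CCR4-NOT complex to shorten poly-A tails, had the least stable call. It stood at 8.40, 6.04 and 5.82 FPKM in CCI and at 7.55, 11.6 and 6.28 FPKM in control. These values overlapped, and control replicate 5 was the highest. In TMM-scaled CPM they did not overlap, at 12.9 to 18.4 in CCI and 19.9 to 46.3 in control. The log2 fold change was -0.98 ± 0.33 (adjusted p = 0.0332). The call was lost in 8 of 16 alternative settings, among them log2(FPKM + 1) (-0.27, adjusted p = 0.366) and leaving out CCI replicate 2 or 3 (adjusted p = 0.0990 and 0.115), and the value was -0.54 without control replicate 5.

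**Figure D2:**
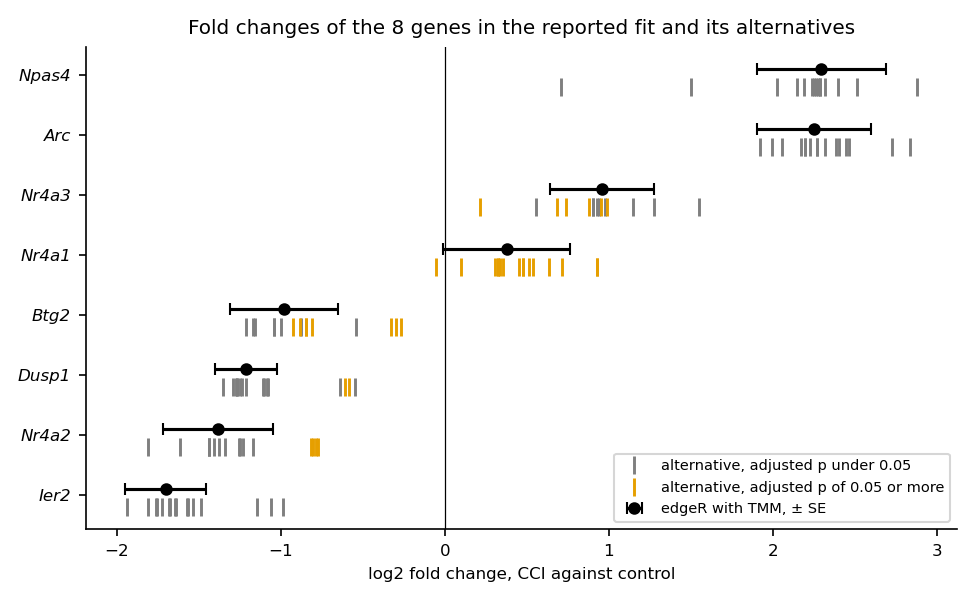
Log2 fold change of CCI over control (horizontal axis) for each gene. Black points with bars are the edgeR estimate with TMM scaling ± SE, and ticks are the alternative settings, grey where the adjusted p was under 0.05 and orange where it was not. The ticks of Arc, Npas4 and Ier2 are all grey, those of Nr4a1 are all orange and reach -0.05, and those of Btg2 range from -1.21 to -0.27.

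The number of calls among all genes moved with the setting, and the share called is given in brackets after each count of the 8. With column totals alone 3 of the 8 were higher (45.4% of tested genes) and 2 lower (9.72%). On log2(FPKM + 1) 3 were higher (47.6%) and 1 lower (9.64%), and on log2(FPKM + 0.1) likewise 3 (46.5%) and 1 (9.43%), so that the lower call of Ier2 was the one kept where few genes were lower. With length trends removed 2 were higher (21.3%) and 3 lower (27.0%), and with length and mean count trends removed 2 (18.2%) and 2 (19.1%). The DESeq2 Wald test gave 3 higher (26.1%) and 4 lower (28.1%), voom 3 (28.0%) and 4 (24.6%), no filter 3 (21.3%) and 4 (20.4%), and the stricter filter 1 (30.2%) and 3 (27.0%) of 6 tested. Without CCI replicates 1, 2 and 3 in turn, 3, 2 and 2 were higher (20.0%, 21.6% and 20.8%) and 4, 3 and 3 lower (18.2%, 19.8% and 19.2%). Without control replicates 4, 5 and 6 in turn, 2, 3 and 2 were higher (23.6%, 31.5% and 21.3%) and 4 were lower each time (24.3%, 30.5% and 21.8%).

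The split went with abundance in control, a level that itself enters the fold change. Compared per length, the control levels ran from Dusp1 (27.0 ± 7.19 FPKM, SD, n = 3) through Nr4a2 (25.2 ± 8.67), Ier2 (17.7 ± 6.76), Btg2 (8.47 ± 2.77), Nr4a1 (2.56 ± 1.20), Arc (1.13 ± 0.442) and Nr4a3 (0.337 ± 0.0468) to Npas4 (0.106 ± 0.0323). The 4 highest in this order are the 4 that fell. Dusp1 and Nr4a2, Nr4a2 and Ier2, Ier2 and Btg2, and Nr4a1 and Arc overlapped in range with their neighbour in control, and the other neighbours did not. In CCI the order was Dusp1 (17.4 ± 2.75 FPKM), Nr4a2 (14.6 ± 6.73), Arc (8.06 ± 2.93), Ier2 (7.99 ± 0.882), Btg2 (6.75 ± 1.43), Nr4a1 (4.86 ± 2.27), Nr4a3 (0.983 ± 0.308) and Npas4 (0.809 ± 0.125). Arc moved from the sixth place to the third, and the ranges of neighbours overlapped throughout, except between Nr4a1 and Nr4a3. Over all 14259 tested genes, Spearman's rho between log2 fold change and mean FPKM was -0.519, given as a description across genes, which share the libraries and are not independent. With the genes cut into 4 equal bins by mean FPKM, the median log2 fold change was 0.75 in the lowest bin, which holds Npas4 and Nr4a3, 0.37 in the next, which holds Arc and Nr4a1, -0.11 in the third, which holds Ier2 and Btg2, and -0.71 in the highest, which holds Nr4a2 and Dusp1. Arc and Npas4 stood above and Ier2 below the median of their own bin by more than 1 log2 unit, while Nr4a3, Nr4a1, Dusp1, Nr4a2 and Btg2 stood nearer to it. The part of this trend in the calls was not tested beyond the fit that removes it, in which Arc was at 2.17 ± 0.34, Npas4 at 1.504 ± 0.41 and Ier2 at -1.54 ± 0.26.

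**Figure D3:**
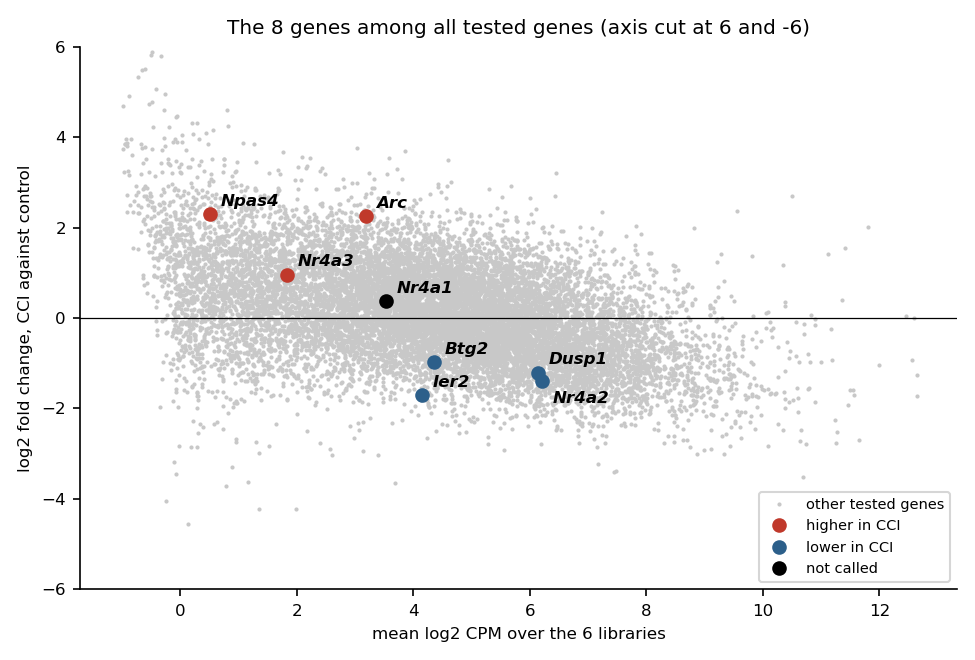
Log2 fold change of CCI over control (vertical axis, cut at 6 and -6) against mean log2 CPM over the 6 libraries (horizontal axis) for all 14259 tested genes in grey and for the 8 genes in colour (red higher, blue lower, black not called). The grey cloud slopes downward, and Npas4 and Arc lie in its upper part and Ier2 toward its lower edge.

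Ratios between these genes within a library do not depend on how libraries are scaled to each other, and show unequal change without saying which gene changed. The log2 ratio of Arc to Ier2 was 0.00, -0.69 and 0.56 in CCI and -3.73, -3.33 and -4.78 in control. Arc was thus near the level of Ier2 in each CCI library and far below it in each control library. The log2 ratio of Npas4 to Ier2 was -3.31 ± 0.30 in CCI and -7.35 ± 0.74 in control, and that of Nr4a1 to Nr4a2 was -1.60 ± 1.02 and -3.38 ± 0.84 (SD, n = 3 each). Among the genes that fell, the ratios held nearer: Nr4a2 to Dusp1 was at -0.33 ± 0.49 in CCI and -0.12 ± 0.64 in control, and Ier2 to Dusp1 at -1.11 ± 0.25 and -0.66 ± 0.24, with groups that overlapped in both. Arc to Npas4 was at 3.27 ± 0.67 and 3.397 ± 0.96, also overlapping. Of all 28 pairs, 19 did not overlap between groups. The share over pairs of all tested genes was not computed, so this count has no background beside it. These 19 pairs include each of the 12 pairs of 1 higher and 1 lower gene, as the calls themselves largely fix. With 3 against 3 libraries the exact two-sided permutation test cannot go below p = 0.1, which these 19 pairs reached (adjusted p = 0.147 over the 28), so none passed.

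**Figure D4:**
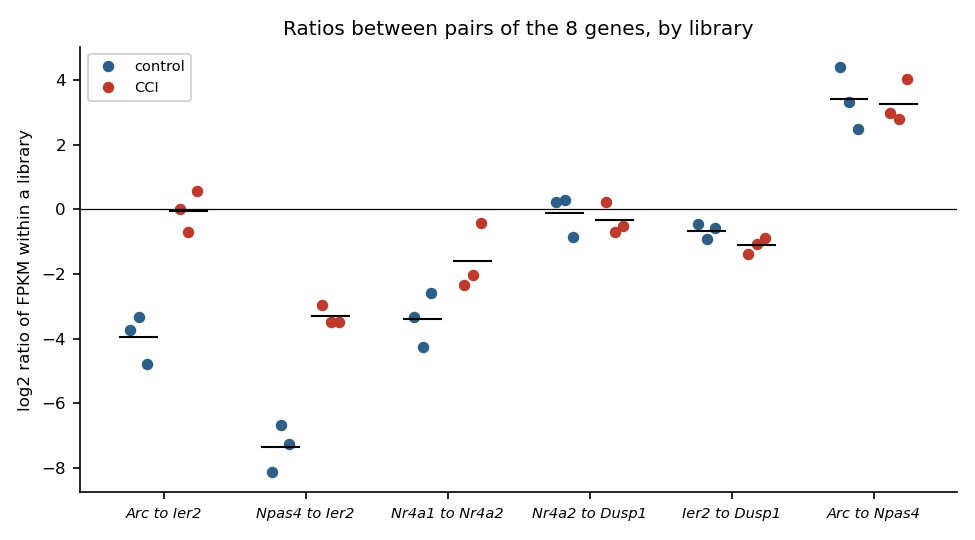
Log2 ratio of FPKM between 2 genes in the same library (vertical axis) for 6 of the 28 pairs. Points are libraries, blue for control and red for CCI, and black lines are group means. Arc to Ier2, Npas4 to Ier2 and Nr4a1 to Nr4a2 are higher in every CCI library, and the other 3 pairs overlap.

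The relatives of these genes were also mixed, where 27.0% of all tested genes were called higher and 25.3% lower. Of 5 tested genes of the BTG and TOB family, which restrain cell division, 1 rose, 1 fell (Btg2) and 3 did not pass. Tob2 rose by 1.72 ± 0.18 (adjusted p = 0.000263), from 1.54, 1.19 and 1.19 FPKM in control to 6.76, 5.70 and 7.03 in CCI. The values were -0.78 for Btg1 (-0.36 without control replicate 5, and passing by the DESeq2 Wald test at -0.85 and without control replicate 6 at -0.99), -0.29 for Tob1 and 0.12 for Btg3. Tob1 was at 0.36 with column totals alone, and Btg4 had too few counts to be tested. Of the 4 IER genes, Ier5 rose by 0.80 ± 0.23 and Ier5l by 1.29 ± 0.35 while Ier2 fell, and Ier3 was at -0.08. Ier3 was at 0.52 with column totals alone. The call of Ier5 was lost with length and mean count trends removed (0.66) and when CCI replicate 1 or 3 or control replicate 4 or 6 was left out (0.69 to 0.83). That of Ier5l was lost with length and mean count trends removed (0.82) and on leaving out CCI replicate 3 (1.10) or control replicate 6 (1.09). Of 9 tested phosphatases of the DUSP family that act on MAP kinases, 2 rose, 3 fell and 4 did not pass (median 0.06). Dusp6 fell by 1.597 ± 0.18 from 19.1, 13.7 and 21.98 FPKM to 8.79, 7.79 and 10.5, while Dusp10 rose by 1.37 ± 0.31 and Dusp7 by 0.85 ± 0.24. The call of Dusp7 was lost without CCI replicate 3 (0.59, adjusted p = 0.0701) or control replicate 4 (0.72, adjusted p = 0.0681).

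Other genes of the activity response, in lists named early and late, gave the following counts. They stand beside the 27.0% of all tested genes called higher and the 25.3% called lower. Among 8 tested AP-1 and EGR genes, transcription factor families that include classical early genes, 2 rose, 6 did not pass and none fell (median 0.64). The AP-1 genes Jund (1.31 ± 0.35) and Jun (0.65 ± 0.18) rose, and Egr1 was at 0.63 ± 0.26 and Egr3 at 1.73 ± 0.73, neither past the threshold (adjusted p = 0.0739 and 0.0734). Egr3 was at 0.49 (adjusted p = 0.50) without CCI replicate 3, and passed without CCI replicate 2 (2.18) or control replicate 5 (1.97), with column totals alone (2.34) and by the DESeq2 Wald test (1.64). Egr1 was at 0.39 without control replicate 5, and passed with column totals alone (1.18), with the stricter filter (0.76) and on both FPKM scales (1.05 and 1.23). The call of Jund was lost without CCI replicate 3 (0.98), and that of Jun without CCI replicate 1 (0.62). Fos, named after its values were seen as the gene most used to mark neuronal activity, stood at 37.0, 28.0 and 19.3 FPKM in CCI and at 14.4, 8.37 and 17.6 in control, with a log2 fold change of 0.49 ± 0.27 (adjusted p = 0.151). Leaving out CCI replicate 1 gave 0.25 and leaving out control replicate 5 gave 0.30, neither passing. It passed with column totals alone (1.06), on both FPKM scales (1.02 and 1.07) and with length and mean count trends removed (1.04). A further 15 early genes were tested, of which 4 rose, 11 did not pass and none fell (median 0.43). Those that rose were the kinase genes Sgk1 (1.51 ± 0.38) and Sik1 (0.65 ± 0.21), Zfp36 (1.56 ± 0.40), whose product destabilises mRNAs, and the clock gene Per1 (1.07 ± 0.32). The call of Sik1 was lost in 7 of the 16 alternative settings, with length trends removed (0.53), with length and mean count trends removed (0.25) and when any library but control replicate 5 was left out (0.57 to 0.70). The call of Zfp36 was lost with length and mean count trends removed (0.93), and that of Per1 without CCI replicate 2 or 3 (1.05 and 1.02). Of 12 genes listed here as late activity genes, 1 rose, 6 fell and 5 did not pass (median -0.49). Late is only the name given to this list, and the timing of these transcripts was not measured. The granin gene Scg2 fell by 1.98 ± 0.27, the vesicle protein gene Syt4 by 1.48 ± 0.31, the kinase gene Plk2 by 1.36 ± 0.15 and the growth factor gene Bdnf by 0.95 ± 0.16. The calls were lost for Bdnf with column totals alone and on both FPKM scales (-0.35 to -0.32, adjusted p from 0.0919 to 0.0991) and for Syt4 with length and mean count trends removed (-0.40, adjusted p = 0.247). Inhba, the activin subunit gene and the gene of this list that rose, was named after its values were seen (1.48 ± 0.36, and 0.62 with an adjusted p of 0.219 with length and mean count trends removed).

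**Figure D5:**
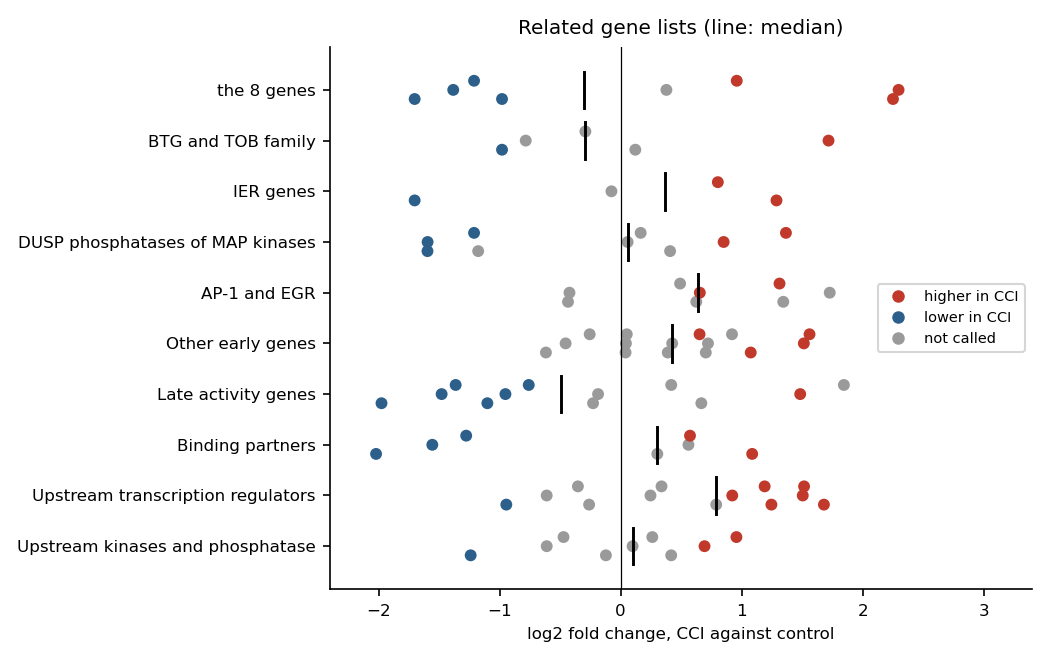
Log2 fold change of CCI over control (horizontal axis) for each tested gene of the 8 and of 9 related lists (rows). Points are genes, red where called higher, blue where called lower and grey where not called, and black lines are medians. The row named late activity genes has 6 blue points and that of the upstream transcription regulators 6 red ones, and the 8 genes are split between both sides.

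Upstream of these genes, 6 of 13 transcription regulators rose, 1 fell and 6 did not pass (median 0.79). The CREB coactivator genes Crtc3 and Crtc2 rose by 1.68 ± 0.26 and 1.25 ± 0.30, the SRF coactivator gene Mrtfa by 1.51 ± 0.30 and the SRF partner gene Elk1 by 1.52 ± 0.24. Among kinase and phosphatase genes that carry the signal to these regulators, the calcium-dependent kinase gene Camk2b rose by 0.69 ± 0.23 and the ribosomal S6 kinase gene Rps6ka2 by 0.96 ± 0.23, and the calcineurin gene Ppp3cb was at -0.61 ± 0.29. With length trends removed Camk2b was at 0.23 (adjusted p = 0.434) and Rps6ka2 at 0.44 (adjusted p = 0.149), so both calls were lost. Rps6ka2 was at 0.21 (adjusted p = 0.484) with length and mean count trends removed. Leaving out any 1 CCI library also ended the call of Camk2b (0.61 to 0.74), and without control replicate 5 it was at 0.46 and passed. Among 7 genes for binding partners of the 8 proteins, 2 rose, 3 fell and 2 did not pass. Arnt2, which pairs with Npas4, rose by 1.09 ± 0.17. Rxrg, which can pair with NR4A receptors, fell by 1.28 ± 0.28 (-0.70 to -0.48, not passing, with column totals alone and on both FPKM scales), and the deadenylase genes Cnot8 and Cnot7, whose products bind Btg2, fell by 2.02 ± 0.15 and 1.56 ± 0.16. Over all these lists, without the 8 genes, 22 of 79 tested genes rose and 13 fell, against 27.0% and 25.3% of all tested genes.

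For each of the 8, the tested genes with the most alike pattern over the 6 libraries were found by the root-mean-square difference of log2 CPM after centring each gene, and genes with a 0 count were left out. For Arc these were Bcl11b (0.161 log2 units), a transcription factor gene of cortical and striatal projection neurons, Frmpd3 (0.162) and the actinin gene Actn2 (0.167). For Npas4 they were Ece2 (0.157), Lrrcc1 (0.162) and Cdk13 (0.186), and for Nr4a1 Tgfb1i1 (0.182), Klhl40 (0.187) and Pwwp2b (0.208). Nr4a2 was nearest to the substance P receptor gene Tacr1 (0.197), Armh4 (0.207) and the nicotinic receptor gene Chrna3 (0.286), and Nr4a3 to Tmem88b (0.0927), Tspan2 (0.104) and the semaphorin receptor gene Nrp1 (0.117). The nearest gene was at 0.0193 for Ier2 (Lrrc59), 0.0584 for Dusp1 (Dnajc10) and 0.0882 for Btg2 (Tmf1). With 6 libraries in 2 groups, many genes share any such pattern.

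Markers of cells and regions moved with the same contrast, where 27.0% of all tested genes were called higher and 25.3% lower. Of 7 tested markers of cortical and hippocampal excitatory neurons, where Arc and Npas4 are strongly inducible, 6 rose and none fell. The summed level of the 8 markers listed was 46.7 to 66.2 FPKM in CCI and 8.005 to 13.6 in control, and no marker was at 0. In CCI replicate 3, the highest for Arc, Nr4a1 and Nr4a3, the neuronal differentiation gene Neurod6 stood at 33.0 FPKM, against 2.44 and 1.95 in CCI replicates 1 and 2 and 0.301 to 1.05 in control. Egr3 was also highest there, at 3.58 FPKM against 1.05 and 0.401. Neurod6 and the markers that follow were named after their values were seen. Slc17a7, Tbr1, Fezf2 and Emx1 were likewise highest in CCI replicate 3. Prox1 (13.5, 15.06 and 11.15 FPKM in CCI replicates 1, 2 and 3) and C1ql2 (23.7, 29.3 and 10.7) were lowest there among the CCI libraries. Of 6 markers of striatal and other GABAergic neurons 3 rose and none fell (37.5 to 79.4 FPKM summed in CCI, 12.3 to 23.1 in control). Of the 4 habenula markers 2 fell (76.6 to 241 FPKM summed in CCI, 140 to 336 in control). The 4 microglial markers had no call (26.7 to 38.4 and 14.2 to 23.5 FPKM), and of the 4 endothelial markers 2 rose (22.02 to 24.8 and 12.9 to 19.2 FPKM). Of the 4 astrocyte markers 2 rose and none fell (152 to 178 FPKM summed in CCI, 64.6 to 99.8 in control). Of the 4 oligodendrocyte markers 2 rose and none fell (3086 to 4062 FPKM summed in CCI, 951 to 1667 in control). The 4 choroid plexus markers had no call, with a summed level of 192 FPKM in control replicate 6 against 1999 to 2819 in the other libraries. The part of these differences in the values of the 8 genes was not tested. Without CCI replicate 3, Arc was at 1.92 and Npas4 at 2.40, and both passed. That fit does not remove the marker differences. The cortical and hippocampal markers summed to 46.7 and 50.7 FPKM in CCI replicates 1 and 2, also above control.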

How the data were processed

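RNA from mouse paraventricular thalamus was sequenced in 6 libraries, after poly-A selection and random priming per the labels' protocols. Per the submitters' processing notes, fastp 0.22.0, HISAT2 2.1.0, HTSeq 0.9.1, StringTie 2.2.1 and DESeq 1.38.3 were used with the GRCm39 assembly, and no strand setting is given in the sources used here. The deposited table holds, per the file headers, raw read counts and FPKM per gene and library and a gene length in bp. The FPKM were checked to equal the count scaled by that length and by the column total.

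The test on counts used edgeR 4.0.16 under R 4.3.3 (filterByExpr, TMM scaling, quasi-likelihood F-test, 1 fit over the 6 libraries, Benjamini-Hochberg adjustment over 14259 genes). Standard errors were derived from each log2 fold change and its F statistic. CPM are scaled by TMM factors of 1.21 to 1.25 in CCI and 0.686 to 0.900 in control. Alternatives were DESeq2 1.42.0 size factors or Wald test, column totals alone, 2 other filters, limma 3.58.1 with voom or on log2 FPKM with 1 or 0.1 added, offsets for smooth trends (splines, 4 degrees of freedom) in gene length or in length and mean count, and each library left out. Only the edgeR code, without an offset and with the length offset, was run on simulated counts.

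Python 3.11.15 was used for ratios and promoter searches. Named beside the 8 genes were all genes of lists of up to 6, the 4 with the smallest p of longer lists, and the 3 most alike genes with a mean of at least 1 FPKM in a group. The genes and lists were chosen with earlier results of these data known, so no list was tested as a set. Some genes of the lists are not reported here by name.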

Additional observations from a re-analysis of the deposited data

How the results depend on the processing

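No paired analysis was possible because the groups share no replicate number. Arc, Npas4 and Ier2 kept direction and call in every alternative that could test them; with at least 10 CPM asked in 3 libraries, Npas4 and Nr4a3 were not tested, so 1 of the 8 was higher. Scaling by column totals moved all fold changes up by 0.59 (log2) at the median, and limma on log2(FPKM + 1) and log2(FPKM + 0.1) by 0.51 and 0.60. These 3 settings gave 6477, 6785 and 6632 genes higher and 1386, 1374 and 1345 lower, against 3853 and 3608, so 82.4% to 83.2% of calls were higher, against 51.6%. The offset for length and mean count moved them by -0.15 and the stricter filter by 0.14. Of the 8 genes, 2 were lower with column totals, 1 on each FPKM scale and 2 with length and mean count trends removed. In the order column totals, log2(FPKM + 1), log2(FPKM + 0.1), Nr4a2 was at -0.78, -0.78 and -0.82 and Btg2 at -0.33, -0.27 and -0.30, and Dusp1 was at -0.59 and -0.61 on the FPKM scales; none of these passed. Removing length trends left Nr4a3 at 0.74 and Btg2 at -0.81, and removing length and mean count trends left Nr4a3 at 0.21, Nr4a2 at -0.80 and Btg2 at -0.84, not passing. Btg2 was at -0.85 with the stricter filter (adjusted p = 0.0610). Leaving out 1 library gave 1.92 to 2.47 for Arc, 2.02 to 2.51 for Npas4 and -0.053 to 0.64 for Nr4a1. It gave -1.81 to -1.17 for Nr4a2, 0.69 to 1.15 for Nr4a3 and -1.94 to -1.57 for Ier2. For Dusp1 it gave -1.35 to -1.09 and for Btg2 -1.21 to -0.54. In these fits 2 to 3 of the 8 were higher and 3 to 4 lower. With 1 library fewer to keep apart, 19 to 24 ratio pairs did not overlap. Without CCI replicate 3 Nr4a1 turned to -0.053. Among relatives that passed nowhere in the reported fit, the sign also turned for Tob1 (0.36, 0.38 and 0.40 in the 3 scaling settings, 0.28 with both trends removed, 0.15 without control replicate 5, from -0.51 to 0.15 over single libraries left out), Ier3 (0.52, 0.42 and 0.49, 0.10 with length trends removed, 0.10 without CCI replicate 1, from -0.22 to 0.10), Ppp3cb (0.042, 0.062 and 0.069) and Btg3 (-0.27 with both trends removed, and -0.01, -0.13 and -0.05 without CCI replicate 1, CCI replicate 3 and control replicate 6, from -0.13 to 0.43). The causes were not tested beyond these settings. The low number of reads in control limits Npas4, with 4 to 9 reads per library.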
